A study of Mus musculus with 12 samples.

Results

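Krt8, Krt18, Krt7 and Krt19, the keratin genes of the trophectoderm, were followed in mouse preimplantation embryos. They were 4 of the 18193 genes that the array's annotation named, chosen by symbol, and were measured by 6 probe sets (3 for Krt8 and 1 for each of the others). Each gene was represented by its probe set with the highest mean level. Messenger RNA of ICR mouse embryos was measured on 12 Affymetrix Mouse Genome 430 2.0 arrays, with 2 arrays in each of 6 groups. The untreated controls were 2-cell embryos taken on day 1.5, embryos with 4 to 8 cells on day 2.5, and morulae to blastocysts on day 3.5. Embryos exposed to 20 µM U0126, which blocks the kinases MEK1 and MEK2 upstream of ERK, were collected at day 2.5, when they stood arrested with 4 cells. Embryos released from that arrest were collected at day 3.5 (8 cells) and at day 4.5 (morula to blastocyst). Every released group was therefore older than the control of the nearest stage, and age and earlier treatment cannot be told apart in that comparison. The series text speaks of 2 independent experiments, and the labels number the 2 arrays of each group without saying that the number marks the experiment or how many embryos were pooled per array.

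Keratins build the intermediate filaments of epithelial cells, and a filament forms only when a type I keratin pairs with a type II keratin. Krt8 (type II) and Krt18 (type I) are the usual partners in simple epithelia and the first keratins to form filaments in the mouse embryo. Krt7 is a second type II keratin of simple and glandular epithelia and of placental trophoblast. Krt19 is a short type I keratin that lacks most of the tail domain. The trophectoderm is the outer epithelium of the blastocyst, which pumps the fluid of the cavity and later gives rise to trophoblast, and its keratin network is a classic sign of its differentiation.

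The promoters of the filament partners are shown first, because Krt8 and Krt18 moved together across the groups, with that of Krt7, the other type II keratin, beside them. The sequences are the 250 bases upstream of the annotated start in RefSeq GRCm38.p6, written 5′ to 3′ on the gene's own strand, and 3 of the 4 genes matched the promoter table. Capitals mark matches to the motifs listed after them.
Krt8, chr15:102004343-102004592, minus strand: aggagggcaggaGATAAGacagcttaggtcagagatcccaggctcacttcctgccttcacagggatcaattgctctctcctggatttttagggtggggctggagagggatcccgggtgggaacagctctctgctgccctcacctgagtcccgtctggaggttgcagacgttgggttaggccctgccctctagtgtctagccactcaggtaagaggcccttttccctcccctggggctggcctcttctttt
Krt18, chr15:102027966-102028215, plus strand: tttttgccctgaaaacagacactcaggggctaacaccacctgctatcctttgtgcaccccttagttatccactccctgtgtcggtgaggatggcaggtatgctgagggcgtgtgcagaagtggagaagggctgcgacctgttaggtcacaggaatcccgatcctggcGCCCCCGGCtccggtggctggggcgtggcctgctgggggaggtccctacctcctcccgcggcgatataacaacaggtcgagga
Krt7, chr15:101412153-101412402, plus strand: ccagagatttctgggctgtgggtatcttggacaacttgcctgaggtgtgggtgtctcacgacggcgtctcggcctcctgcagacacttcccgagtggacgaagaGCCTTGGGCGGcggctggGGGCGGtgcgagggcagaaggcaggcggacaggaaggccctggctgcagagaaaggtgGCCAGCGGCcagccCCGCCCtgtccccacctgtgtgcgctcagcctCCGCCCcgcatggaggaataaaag
Krt8 and Krt18 are neighbours on chromosome 15, with starts 23.9 kb apart, opposite strands and 0 protein-coding genes between them. Krt7 lies on the same chromosome with 23 protein-coding genes between it and Krt8, and Krt19 lies on chromosome 11.

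Motifs were searched on both strands, and a match is a description of letters only. The GATA element GATAAG was found once in Krt8 and is held by 6.5% of 32851 promoter windows of the same length. The AP-2 element GCCNNNGGC was found once in Krt18 and at 2 places in Krt7, against 13.7% of windows. The GC box GGGCGG was found at 4 places in Krt7, 1 of them overlapping an AP-2 match, and is held by 32.7% of windows. The TATA box TATAAA (12.4%), the AP-1 element TGANTCA (6.7%), the TEAD element GGAATG (12.6%), the ETS element CGGAAG (13.6%) and the CDX element TTTATG (10.8%) had no match in these 3 windows.

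Pearson's r between the arrays of 1 group was 0.955 (U0126 day 2.5) to 0.980 over the 9929 genes tested, and 11 of 12 arrays were most like their partner. Genes were tested when their log2(intensity + 1), called the level here, was at least 5 on at least 2 arrays. Of markers of other cell types on the array, all 10 of cumulus and granulosa cells, all 7 of stromal cells and all 8 of blood and immune cells lay under 5 on every array. The oviduct list, which covers another keratin-bearing epithelium, had 6 of 10 genes under 5 on every array, among them Foxj1 and Pax8. Its summed level lay between 7.03 and 8.18 except in released day 4.5 embryos, at 8.85 and 9.08. The rest of the list met 5 only through Ovgp1, Sec14l3, Wfdc2 and, on 1 array, Cftr. Wfdc2, an epithelial secreted protein, was at 3.31, 3.18 and 6.41 in the 3 control groups by age. It was at 3.61 in arrested embryos and 6.10 on day 3.5 after release. It shared the later rises of Krt8 and Krt18, but not their rise to control day 2.5 or their lower level under U0126. It reached 8.56 ± 0.22 (SD, n = 2) in released day 4.5 embryos, whereas Ovgp1, the oviduct glycoprotein, stood at 4.40 ± 0.33 there. The part of Wfdc2-expressing cells in the keratin results was not tested.

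Krt8 rose from background to one of the highest levels on the array in undisturbed development. Its levels were 3.92 and 3.68 in control day 1.5 embryos, 9.98 and 9.19 at day 2.5, and 13.84 and 12.98 at day 3.5. No arrays of different control days overlapped. The first step was 5.79 ± 0.42 log2 units (SE, n = 2 per group, adjusted p = 1.78e-06). With the 2-cell level set to 5, it was still at least 4.59. The second step was 3.82 ± 0.42 (adjusted p = 4.95e-04), 14.1-fold. At day 3.5 the Krt8 mean lay above 99.4% of named genes. In whole embryos, a larger share of trophectoderm cells and more RNA per cell cannot be told apart.

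Krt18 followed the same course. Its levels were 4.00 and 3.76 in control day 1.5 embryos, 9.02 and 8.13 at day 2.5, and 12.98 and 11.75 at day 3.5, again without overlap between days. It rose by 4.70 ± 0.59 (adjusted p = 6.30e-05; lower bound 3.58 with the 2-cell level set to 5) and then by 3.78 ± 0.59 (adjusted p = 0.00198). Both partners lay under 5 at 2 cells.

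Krt7 stayed low in controls. Its levels were 2.90 and 2.98 at day 1.5, 3.61 and 4.17 at day 2.5, and 4.89 and 5.01 at day 3.5, so that it exceeded 5 on 1 of the 6 control arrays. Over both steps it rose by 2.02 ± 0.32 (adjusted p = 2.55e-04), a difference made of signal near background. The single steps also passed, at 0.95 ± 0.32 (adjusted p = 0.0254) and 1.06 ± 0.32 (adjusted p = 0.0368). The first did not pass without either array of control day 1.5 (adjusted p = 0.0847 without replicate 1 and 0.0663 without replicate 2) or without control day 2.5 replicate 2 (adjusted p = 0.180). The second did not pass without any 1 of the 4 arrays of its groups (adjusted p from 0.0529 to 0.219), nor with no filter, median centring, a trended robust prior or the 4 arrays alone (adjusted p from 0.0532 to 0.0913). With a pseudocount of 16 the steps were 0.40 and 0.62 and neither passed (adjusted p = 0.226 and 0.121).

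Krt19 was not detected above a level of 5 on any control array. Its levels were 3.26 and 3.43 at day 1.5, 3.38 and 3.58 at day 2.5, and 4.30 and 3.50 at day 3.5. The arrays of day 2.5 overlapped those of both other days. Its difference over both steps was 0.55 ± 0.34 (adjusted p = 0.173), with a 95% interval from -0.19 to 1.30. It entered the test only through the released day 4.5 arrays, described further on.

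In the first control step 3 of the 4 keratins were higher, against a background of 28.0% of all tested genes called higher. In the second step 3 of 4 were higher, against 13.3%, and over both steps 3 of 4, against 35.1%. The median over the 4 keratins was 2.83 in the first step and 2.42 in the second, against 0.09 over all tested genes in each. These medians lie between the large rises of Krt8 and Krt18 and the small ones of Krt7 (0.95 and 1.06) and Krt19 (0.13 and 0.42), and describe no single keratin.

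**Figure D1:**
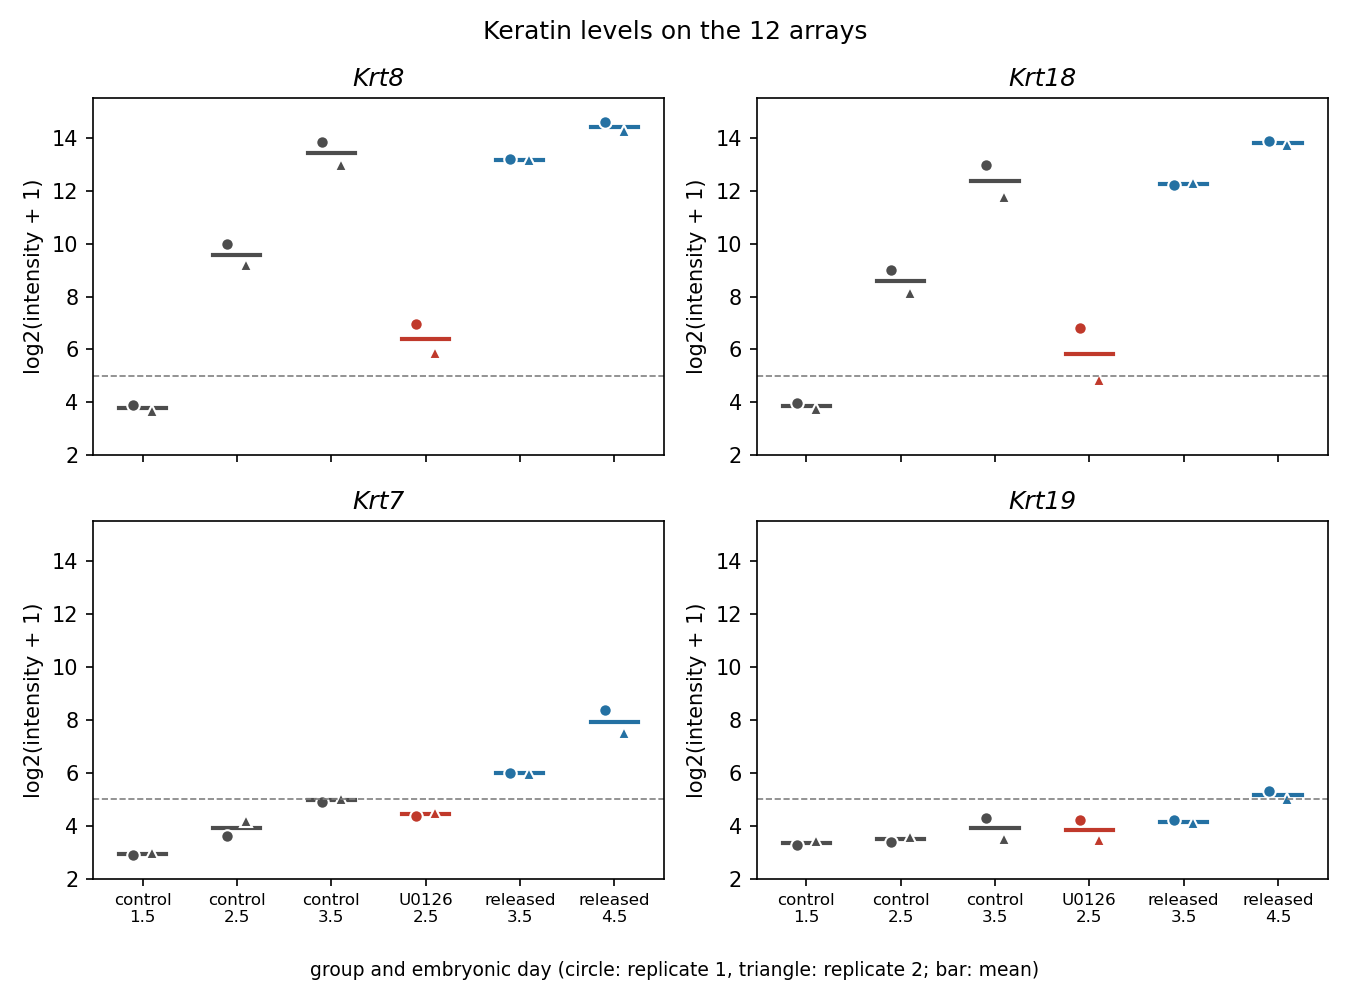
Level of each keratin, log2(intensity + 1), on the 12 arrays by group and embryonic day. Circles are replicate 1, triangles replicate 2, bars the group mean, and the dashed line is the level of 5 used as a filter. Krt8 and Krt18 climb from under 5 to above 11 in controls, are lower under U0126 and high after release, and all 4 keratins are highest in released day 4.5 embryos.

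Arrested embryos held much less Krt8 and Krt18 than controls of the same day. They had 4 cells and the controls 4 to 8, so cell stage and treatment cannot be told apart. Under U0126 the Krt8 levels were 6.95 and 5.86, both below the control day 2.5 arrays at 9.98 and 9.19. Krt8 was lower by 3.19 ± 0.42 (log2 difference -3.19, adjusted p = 0.00199, n = 2 per group), 9.10-fold. The Krt18 levels were 6.80 and 4.85, also without overlap with the control arrays. Krt18 was lower by 2.76 ± 0.59 (adjusted p = 0.0131). That call was lost without control day 2.5 replicate 1 (adjusted p = 0.0982) and without U0126 day 2.5 replicate 2 (adjusted p = 0.0503). The treated arrays differed from each other more in Krt18 (SD 1.38) than the arrays of any other group. With only the 4 arrays of this comparison, Krt8 had adjusted p = 0.0668 and Krt18 adjusted p = 0.110, and limma called 0 of all tested genes there, with 2245 at an unadjusted p under 0.05.

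Krt7 did not show that difference. Its levels under U0126 were 4.38 and 4.46, both above the control day 2.5 arrays at 3.61 and 4.17. The difference was 0.53 ± 0.32 (adjusted p = 0.316), with a 95% interval from -0.17 to 1.23, while the interval of Krt8 ran from -4.12 to -2.26. For Krt19 the levels were 4.21 and 3.45, and the difference of 0.35 ± 0.34 (adjusted p = 0.561) did not pass. Krt7 and Krt19 stood under 5 on all 4 of these arrays, and whether the genes differ from each other in their response was not tested. In all, 2 of 4 keratins were lower, against 4.71% of all tested genes.

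The arrested embryos nevertheless stood above the 2-cell embryos that preceded the arrest. Krt8 was higher by 2.6 ± 0.42 (adjusted p = 4.95e-04; lower bound 1.40) and Krt7 by 1.48 ± 0.32 (adjusted p = 0.00289), with both Krt7 groups under 5. The Krt18 difference of 1.94 ± 0.59 (adjusted p = 0.0178) was no longer called when 1 array was left out, be it either 2-cell array (adjusted p = 0.0544 for replicate 1 and 0.0885 for replicate 2) or replicate 1 of the U0126 group (adjusted p = 0.158). These 3 of 4 keratins compare with 28.1% of all tested genes called higher. This and the same-day comparison share the treated arrays.

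A day after release both partners were high. The Krt8 levels in released day 3.5 embryos were 13.18 and 13.17, and those of Krt18 were 12.23 and 12.29. Every released array lay far above every U0126 array. From the arrested embryos Krt8 rose by 6.77 ± 0.42 (adjusted p = 1.10e-05), 109-fold, and Krt18 by 6.44 ± 0.59 (adjusted p = 7.99e-05). Krt7, at 5.98 and 5.96, rose by 1.55 ± 0.32 (adjusted p = 0.00522) (lower bound 0.97). Krt19 stood at 4.21 and 4.08, and its difference of 0.32 ± 0.34 (adjusted p = 0.524) did not pass. Thus 3 of 4 keratins were higher, against 13.7% of all tested genes.

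The design text gives released day 3.5 embryos as 8 cells, and their keratins were set against controls of 4 to 8 cells and against controls of the same day. Against control day 2.5 embryos Krt8 was higher by 3.59 ± 0.42 (adjusted p = 0.00138), Krt18 by 3.68 ± 0.59 (adjusted p = 0.00487) and Krt7 by 2.08 ± 0.32 (adjusted p = 0.00395). These are 3 of 4 keratins, against 8.60% of all tested genes, and with the replicate number as a block 2017 genes passed in either direction in place of 1252. Against control day 3.5 embryos, of the same day but with more cells, 0 of 4 passed in limma's test, against 0.312% of all tested genes called in either direction. The arrays of both groups overlapped for Krt8 (-0.23, 95% interval from -1.16 to 0.70) and for Krt18 (-0.10, from -1.40 to 1.19). For Krt7 the released arrays lay above both control arrays, by 1.02 ± 0.32 (unadjusted p = 0.00886 in the fit, adjusted p = 0.393). Krt19 differed by 0.24 ± 0.34 (adjusted p = 0.999), so that 1 of the 4 had an unadjusted p under 0.05, as had 7.04% of all tested genes.

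Released day 4.5 embryos carried the highest level of all 4 keratins. Krt7 reached 8.36 and 7.49. Against control day 3.5 embryos, of the same labelled stage but a day younger, Krt7 was higher by 2.97 ± 0.32 (adjusted p = 0.00109), 7.86-fold, and against released day 3.5 embryos by 1.96 ± 0.32 (adjusted p = 0.00396). Both calls held without any 1 array of their groups. Krt19 reached 5.29 and 5.0, the only arrays on which it met the level of 5. It was above both control day 3.5 arrays by 1.24 ± 0.34 (adjusted p = 0.0578). It passed when replicate number was a block (adjusted p = 0.0307) and without control day 3.5 replicate 1 (adjusted p = 0.0379). It was above both released day 3.5 arrays by 1.0 ± 0.34 (adjusted p = 0.0765), or adjusted p = 0.0403 with the block. Its mean there was 5.15 ± 0.21 (SD, n = 2), barely above the level of 5. Since these arrays alone admitted Krt19 to the test, its p-values for them describe the fit and support no difference on their own.

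Krt8 and Krt18 were near the top of the scale there, and whether this limited their differences was not tested. Krt8 reached 14.58 and 14.26 and Krt18 reached 13.89 and 13.73 in released day 4.5 embryos, where the highest value of any probe set on an array lay between 14.96 and 15.59. Each of these arrays was above every other array for its gene. Against control day 3.5 embryos the differences were 1.01 ± 0.42 for Krt8 (adjusted p = 0.201) and 1.45 ± 0.59 for Krt18 (adjusted p = 0.188), with intervals from 0.08 to 1.94 and from 0.15 to 2.74. Against released day 3.5 embryos they were 1.24 ± 0.42 (adjusted p = 0.0768) and 1.55 ± 0.59 (adjusted p = 0.107). With the replicate number as a block these last differences passed, at adjusted p = 0.0166 and 0.0357. Under the main test 1 of 4 keratins was higher in each comparison, Krt7, against 3.85% of all tested genes for control day 3.5 and 7.37% for released day 3.5. The block raised the genes called in either direction from 584 to 1017 in the former and from 1365 to 2163 in the latter. Wfdc2 of the oviduct list was also higher than in control day 3.5 embryos, by 2.15 ± 0.50 (adjusted p = 0.0317; from 0.132 to 0.310 without control day 3.5 replicate 2 or either released array). Foxj1 and Pax8 lay under 5.

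**Figure D2:**
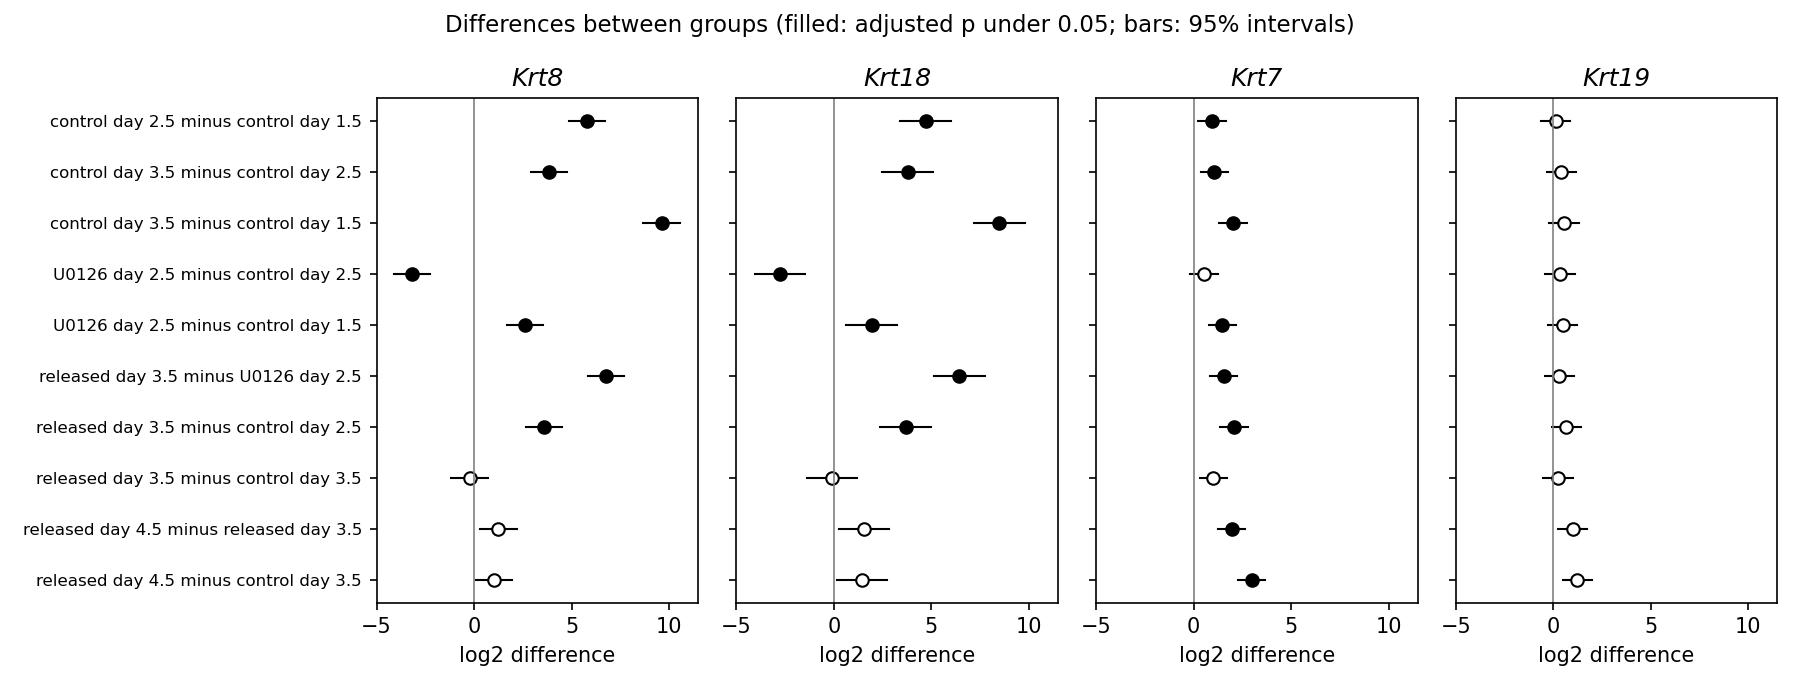
Log2 differences between groups for each keratin, with 95% intervals from the fit over all arrays. Filled points have an adjusted p under 0.05. Krt8 and Krt18 show the large rises, lower levels under U0126 than in control day 2.5 embryos and no called difference after release day 3.5. For Krt7 the largest difference is that between released day 4.5 and control day 3.5 embryos.

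Whether a day of development moved the keratins by the same amount in released and control embryos was tested as a difference between steps. From day 2.5 to day 3.5, Krt8 rose more on release (6.77) than in controls (3.82), a difference of 2.95 ± 0.59 (adjusted p = 0.0297). The call was lost on leaving out control day 2.5 replicate 1, either control day 3.5 array or either released day 3.5 array (adjusted p from 0.0722 to 0.109), and with no filter on low levels (adjusted p = 0.0786). Krt18 had a like difference, 2.65 ± 0.83 (adjusted p = 0.111). It passed when replicate number was a block (adjusted p = 0.0394) and without U0126 day 2.5 replicate 1 (adjusted p = 0.0291). Krt7 (0.49 ± 0.45, adjusted p = 0.633) and Krt19 (-0.10 ± 0.48, adjusted p = 0.947) did not pass. Thus 1 of 4 keratins was called higher, against 1.01% of all tested genes.

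The last step, from released day 3.5 to day 4.5, was set against that from control day 2.5 to day 3.5. The Krt8 step was smaller by 2.58 log2 units on release (difference -2.58 ± 0.59, adjusted p = 0.0524). Without any 1 array of its groups the adjusted p lay between 0.0673 and 0.185. It passed with the replicate number as a block (adjusted p = 0.0136), after median centring (adjusted p = 0.0380) and in a fit over probe sets instead of genes for the other 2 Krt8 probe sets (adjusted p = 0.0267 and 0.0411). Krt18 differed by -2.23 ± 0.83 (adjusted p = 0.185). Krt7 went the other way, by 0.89 ± 0.45 (adjusted p = 0.336), and Krt19 by 0.58 ± 0.48 (adjusted p = 0.595). Neither passed. Here limma called 0 of 4 keratins, with 2 of 4 at an unadjusted p under 0.05, while 2.33% of all tested genes were called in either direction and 17.8% had an unadjusted p under 0.05. Both comparisons of steps share the control arrays and, with opposite sign, the released day 3.5 arrays, so their values are linked, and with the block 692 and 613 genes passed in place of 298 and 231.

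The order of the groups gave the members a common top and bottom but not a common middle. For Krt8 and Krt18 it ran from control day 1.5 through U0126 day 2.5, control day 2.5, released day 3.5 and control day 3.5 to released day 4.5, and released and control day 3.5 were the neighbours whose arrays overlapped. For Krt7 it ran from control day 1.5 through control day 2.5, U0126 day 2.5, control day 3.5 and released day 3.5 to released day 4.5. The arrays of each Krt7 group were clear of those of its neighbours in that order. By limma's test control and U0126 day 2.5 did not differ (adjusted p = 0.316), nor did control and released day 3.5 (adjusted p = 0.393). U0126 day 2.5 was not tested against control day 3.5. Control day 1.5, control day 2.5 and U0126 day 2.5 lay under 5 on every array, so their order rests on signal near background. For Krt19 the order was control day 1.5, control day 2.5, U0126 day 2.5, control day 3.5, released day 3.5 and released day 4.5. Only released day 4.5 was clear of its neighbour there.

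Over the 12 arrays the level of Krt8 correlated with that of Krt18 at r = 0.996, with that of Krt7 at r = 0.814 and with that of Krt19 at r = 0.696. Krt7 and Krt19 correlated at r = 0.910. These arrays share 6 groups, so r describes the group pattern more than single arrays. Krt7 met the level of 5 on 5 of the 12 arrays and Krt19 on 2, so their correlations rest in large part on signal near background. The log2 level of Krt8 minus that of Krt18 within an array, taken relative to its mean over all arrays, ranged from -0.76 in control day 1.5 replicate 1 to 0.55 in control day 3.5 replicate 2. Over the same arrays Krt8 itself ran from 3.68 to 14.58. Krt8 was higher on replicate 1 than on replicate 2 in 6 of 6 groups and Krt18 in 5 of 6, with the largest gaps under U0126 (1.09 and 1.95). Krt7 was higher on replicate 1 in 2 of 6.

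**Figure D3:**
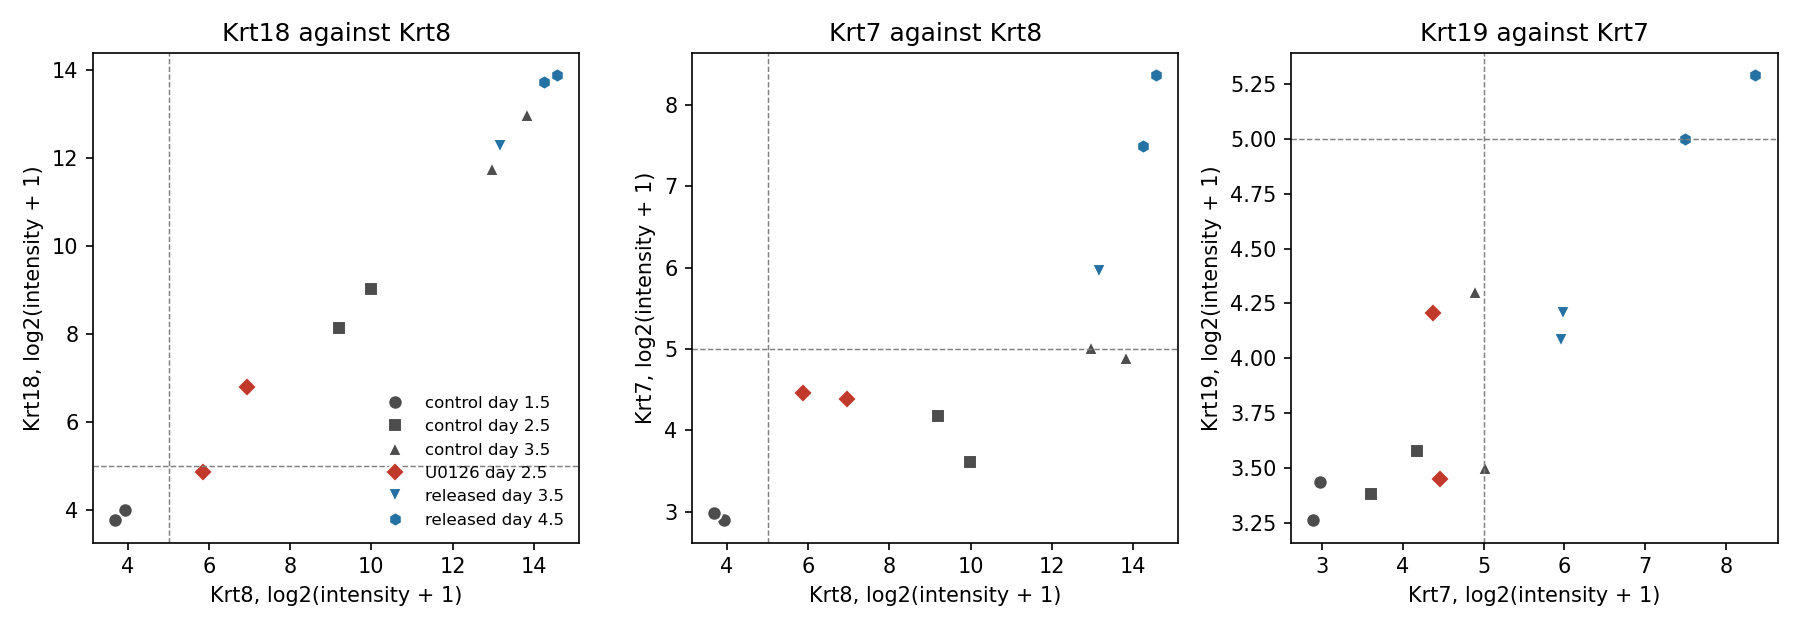
Levels of pairs of keratins, log2(intensity + 1) on both axes, each point 1 of the 12 arrays and each marker 1 of the 6 groups. Dashed lines mark a level of 5. Krt18 follows Krt8 along a line (r = 0.996), whereas Krt7 under U0126 lies at 4.38 and 4.46, above the control day 2.5 arrays that have more Krt8.

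The 3 probe sets of Krt8 gave the same picture. Under U0126 the differences from control day 2.5 were -3.19, -3.18 and -3.11, and from U0126 to released day 3.5 they were 6.77, 6.45 and 6.72. The probe set used has the suffix _x, which Affymetrix gives to sets whose probes may also bind other transcripts. The set with the suffix _a, whose probes are shared by transcripts of the same gene, gave the value listed last in each series.

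Transcription factors of the trophectoderm were examined beside the keratins, 17 of 23 listed genes having been tested. In the first control step 6 were higher and 3 lower, against 28.0% and 27.4% of all tested genes. At the top were Cdx2, which specifies the lineage (4.57 ± 0.35, adjusted p = 2.51e-06; lower bound 2.41), and Gata3 (3.56 ± 0.42, adjusted p = 4.72e-05; lower bound 2.12). In the second step 8 were higher and 1 lower, against 13.3% and 8.28% of all tested genes, among them Id2 (4.74 ± 0.44, adjusted p = 2.11e-04) and Eomes, a factor of trophoblast stem cells (3.70 ± 0.64, adjusted p = 0.00331). Under U0126, 3 were lower and 2 higher, against 4.71% and 9.22% of all tested genes. Cdx2 was down like Krt8 (-2.99 ± 0.35, adjusted p = 0.00135; lower by at least 2.41). Grhl1 (2.34 ± 0.37, adjusted p = 0.00385; lower bound 2.06) and Ets2 (2.30 ± 0.34, adjusted p = 0.00282; lower bound 0.37) were up. Gata3 did not pass there (-1.33 ± 0.42, adjusted p = 0.0645). The median of the list was -0.44, against 0.12 over all tested genes and -1.20 over the 4 keratins. That keratin median describes no single keratin, as it lies between Krt8 and Krt18 (-3.19 and -2.76) and Krt7 and Krt19 (0.53 and 0.35).

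On release 8 of the 17 factors were higher than under U0126 and 3 lower, against 13.7% and 14.5% of all tested genes. They were led by Cdx2 (4.76 ± 0.35, adjusted p = 2.35e-05; lower bound 4.18) and Gata3 (3.80 ± 0.42, adjusted p = 2.35e-04). From released day 3.5 to day 4.5, when Krt7 rose, 9 of 17 were higher and 0 lower, against 7.37% and 6.38% of all tested genes. Elf5, a factor of later trophoblast, had a mean of 8.94 in released day 4.5 embryos and of at most 3.16 in every other group, a rise of at least 3.94. It met the level of 5 only on the released day 4.5 arrays and so entered the test through the group where it is high. Msx2, with a mean of 5.74 there and of at most 4.47 in every other group, did the same. Counts of factors called higher in released day 4.5 embryos are therefore not free of genes admitted by that group. Other large rises were those of Gata2 (4.06 ± 0.47, adjusted p = 7.61e-04) and Tfap2a (4.00 ± 0.54, adjusted p = 0.00155). Cdx2 did not pass in that step (0.98 ± 0.35, adjusted p = 0.0931). Against control day 3.5 embryos 5 factors were higher and 0 lower, against 3.85% and 2.03% of all tested genes. Among them were Elf5, with the same limit, and Gata2 (3.96 ± 0.47, adjusted p = 0.00165). Over the 12 arrays Cdx2 correlated with Krt8 at r = 0.992 and with Krt7 at r = 0.776, and Eomes with Krt8 at r = 0.865 and with Krt7 at r = 0.906.

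Keratin filaments end at desmosomes, and 17 of 24 desmosome and linker genes were tested. In the first control step 6 were higher and 5 lower, shares near the 28.0% and 27.4% of all tested genes. Among the higher were Sfn, a 14-3-3 protein that binds keratin (4.66 ± 0.57, adjusted p = 5.50e-05; lower bound 2.97), and the desmosomal membrane protein gene Perp (4.22 ± 0.43, adjusted p = 1.52e-05; lower bound 2.93). Desmoplakin, Dsp, which anchors keratins, was also higher (3.04 ± 0.63, adjusted p = 0.00183; lower bound 2.11). In the second step 7 were higher and 0 lower, against 13.3% and 8.28%, led by the desmosomal cadherin Dsg2 (3.84 ± 0.48, adjusted p = 7.92e-04). Under U0126 Perp (-1.55 ± 0.43, adjusted p = 0.0379) and Pkp2 (-1.42 ± 0.41, adjusted p = 0.0428) were lower and Pkp4 higher (0.93 ± 0.25, adjusted p = 0.0367). Each of these calls was lost without control day 2.5 replicate 1, control day 2.5 replicate 2 or U0126 day 2.5 replicate 1 (adjusted p from 0.0863 to 0.206), and that of Pkp2 also without U0126 day 2.5 replicate 2 (adjusted p = 0.0627). The calls of Perp and Pkp2 were lost with no filter (adjusted p = 0.0883 and 0.0943) and that of Pkp4 after median centring (adjusted p = 0.107). With the mean of all probe sets Pkp2 differed by -0.54 (adjusted p = 0.365) and Pkp4 by 0.57 (adjusted p = 0.214). Dsp did not pass (-2.10 ± 0.63, adjusted p = 0.0503).

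On release 7 of the 17 linker genes were higher than under U0126 and 1 lower, against 13.7% and 14.5% of all tested genes, with Dsp up by 4.92 ± 0.63 (adjusted p = 4.52e-04) and Dsg2 by 4.07 ± 0.48 (adjusted p = 3.21e-04; lower bound 3.28). From released day 3.5 to day 4.5, 3 were higher and 0 lower, against 7.37% and 6.38%. The desmosomal cadherin Dsc2 rose by 3.38 ± 0.45 (adjusted p = 0.00143), from 6.15 to 9.53.

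**Figure D4:**
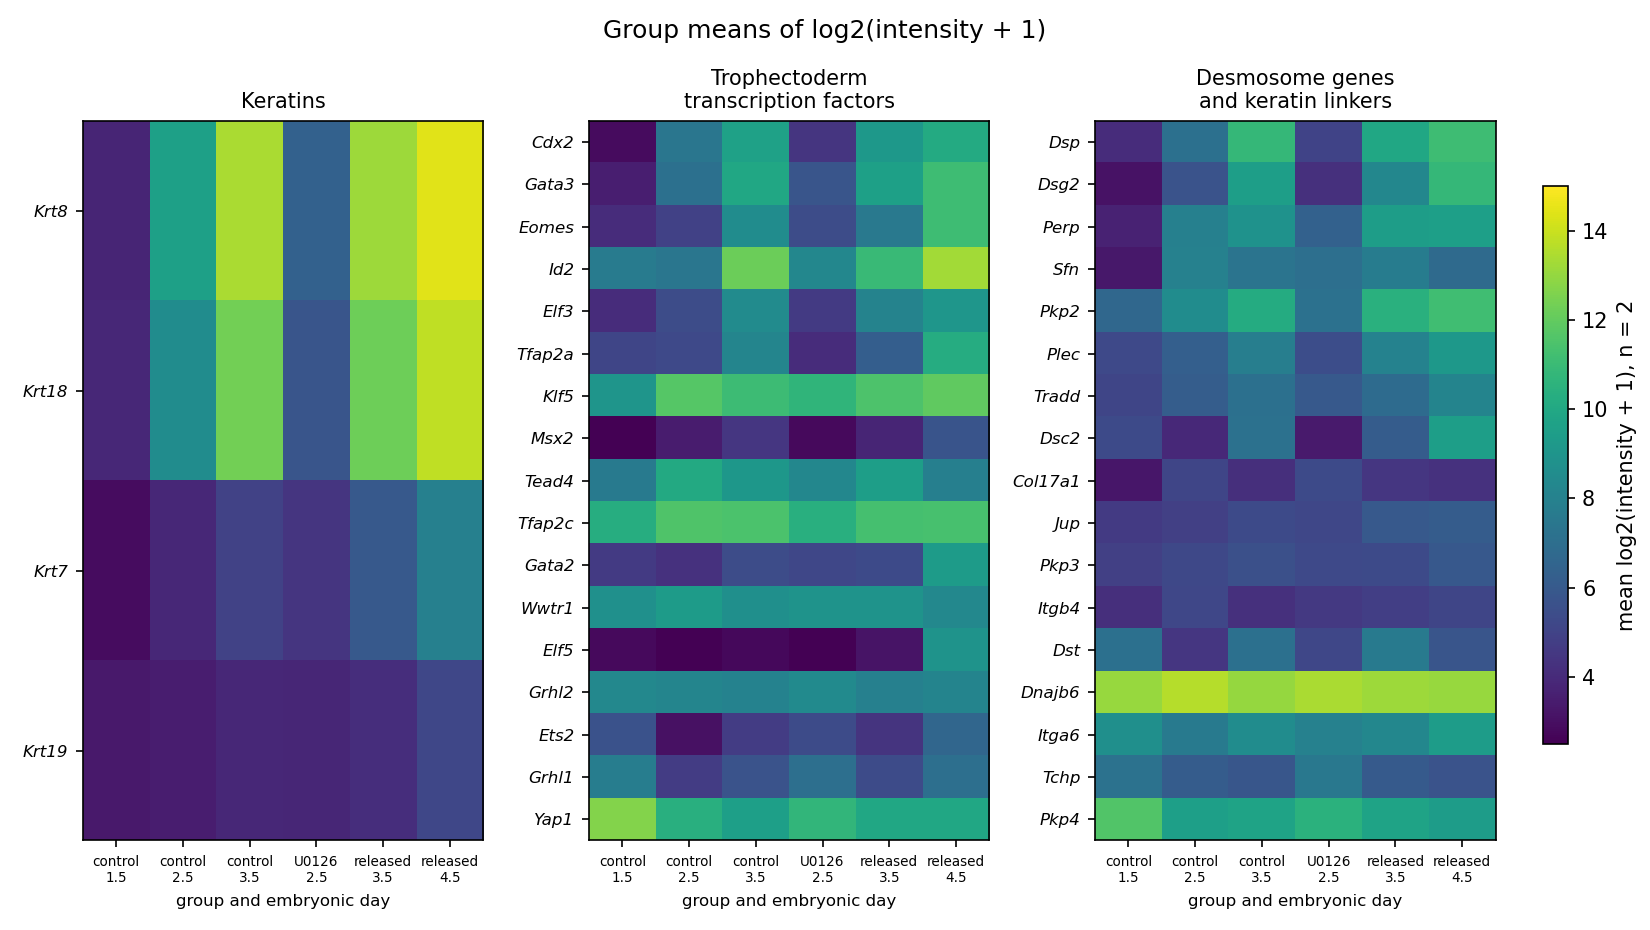
Mean levels, log2(intensity + 1), n = 2, of the 4 keratins and of the tested genes of the transcription factor and desmosome lists in each group. Rows of the lists are ordered by the control rise from day 1.5 to day 3.5. Cdx2, like Krt8 and Krt18, is lower under U0126 than in control day 2.5 embryos, and Krt7, Krt8, Krt18, Krt19, Elf5 and Gata2 are all highest in released day 4.5 embryos.

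Most of the other keratin genes lay near background. Of 44 on the array, 39 lay under 5 on every array, and the 5 tested were Krt10, Krt12, Krt28, Krt42 and Krt84. In no comparison was one of them called higher. Krt12 had a mean of 6.33 and Krt84 of 6.01 in 2-cell embryos, against 2.96 and 2.6 in control day 3.5 embryos. Both met the level of 5 only on the 2-cell arrays and so entered the test through the group where they are high. Krt10, a keratin of stratified epithelium, lay between 5.11 and 6.77 as group means and was called in no comparison. Its lowest mean was that of control day 1.5 and its highest that of released day 4.5 embryos, as for the 4 keratins. Among other intermediate filament genes (11 of 16 tested) 4 were higher and 3 lower in the first control step, near the 28.0% and 27.4% of all tested genes. Under U0126, 3 were higher and 2 lower, against 9.22% and 4.71%. The 2 lower were Sync (-3.23 ± 0.48, adjusted p = 0.00282) and Nefm (-2.88 ± 0.53, adjusted p = 0.00718), with means under 5 there (3.62 and 3.19). With the arrays of that comparison alone neither passed in limma (adjusted p = 0.0668 and 0.0621). Sync and Nefm rose in the first control step (3.05 and 2.79; at least 1.85 and 1.07). Unlike Krt8 and Krt18, they fell in the second (-2.01 and -2.75). Their step on release exceeded the control step by 4.24 ± 0.67 (adjusted p = 0.0181) and 3.83 ± 0.75 (adjusted p = 0.0282). With those arrays alone neither passed in limma (adjusted p = 0.0524 and 0.0728). In the first control step Bfsp1, a lens filament protein, fell most, by 6.5 ± 0.25 (adjusted p = 1.11e-07; at least 5.82). Lmnb2, a nuclear lamin, rose by 2.01 ± 0.27 (adjusted p = 1.0e-04; lower bound 0.37), from 3.36 to 5.37 as means.

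Among the tested genes other than the 4 keratins, those whose levels followed each keratin most closely over the 12 arrays were read out by Pearson correlation. For Krt8 they were Lrp2, the megalin receptor (r = 0.996), Zwint (r = 0.994) and Cdx2 (r = 0.992), and for Krt18 Stard10 (r = 0.994), the focal adhesion gene Lpp (r = 0.993) and the formin Fmnl2 (r = 0.991). For Krt7 they were the respiratory chain subunit Cox5b (r = 0.954), the matrix protein Sparc (r = 0.953) and the chloride channel protein Clic1 (r = 0.953). Sparc rose from 5.96 in control day 3.5 to 8.62 in released day 4.5 embryos as means. For Krt19 they were Pcbp4 (r = 0.967), the formin Diaph1 (r = 0.961) and Gsta4 (r = 0.959). For the mean of the 4 scaled keratin profiles the closest were Lcmt1 (r = 0.984), Crip1 (r = 0.982), Ahnak (r = 0.981), Sdhb (r = 0.980), Chid1 (r = 0.979), H2ax (r = 0.978), Capns1 (r = 0.977), Tmem256 (r = 0.977), Ptprf (r = 0.976) and Pla2g10 (r = 0.976). These correlations rest on the same 6 groups and carry no test. Each keratin weighed the same in the mean profile. Krt7 met the level of 5 on 5 arrays and Krt19 on 2, both of released day 4.5 embryos. The mean profile and the genes closest to Krt7 and Krt19 therefore rest in part on signal near background.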

How the data were processed

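Messenger RNA was measured on 12 arrays of 6 groups. Per the labels' protocols, 0.1 µg of total RNA went through 2 labelling cycles. The authors deposited linear intensity values per probe set. The series' design text names GeneChip Operating Software 1.2 and GeneSpring 7.3, and GCRMA (background correction, quantile normalization and probe summary) is named in the submitters' processing notes. The order of these steps is not stated. The absolute unit is arbitrary, and the number of arrays limits the precision.

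Levels were log2(intensity + 1). Of 45101 probe sets, 64 were controls, 34945 had 1 symbol and 932 several. The probe set with the highest mean stood for each of 18193 genes, and the 9929 genes reaching a level of 5 on 2 or more arrays were tested. All 12 arrays entered 1 limma 3.58.1 model (R 4.3.3) with a mean per group, 6 residual and 4.51 prior degrees of freedom, and 12 contrasts, 2 of them differences between steps. Errors are standard errors unless marked SD. Adjusted p-values are Benjamini-Hochberg values over all tested genes in a contrast, with a threshold of 0.05. The fit was also run on simulated data with independent arrays, which does not cover arrays that deviate together by replicate number. A lower bound of a difference replaces a group mean under 5 by 5.

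Arrays with the same replicate number deviated together (r from 0.125 to 0.417 for 15 of 15 pairs of groups). The series text speaks of 2 experiments without tying the numbers to them. The main model held no term for the replicate number, so its standard errors and calls leave this pairing out. The fit with the replicate number as a block was an alternative that takes it in.

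All keratins and their probe sets were named, and from each list the called genes with the largest differences (up to 4), with the most similar genes by Pearson correlation (10 for the mean profile and 3 for each keratin). Members and lists were chosen with earlier results of these data known.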

Additional observations from a re-analysis of the deposited data

Results flagged for a closer look

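The rise of Krt8 from the U0126 arrest to released day 3.5 exceeded its rise from control day 2.5 to day 3.5 by 2.95 ± 0.59 log2 units (limma, adjusted p = 0.0297), a difference between 2 groups under the same one-day step. The 2 other Krt8 probe sets gave adjusted p = 0.0176 and 0.0228 in the fit over probe sets. The arrested embryos started the step lower (6.40) than the controls (9.59), and both ended at like levels (13.18 and 13.41). The call was lost in 5 of the fits without 1 array, where the difference ran from 2.52 to 3.38.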

How the results depend on the processing

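No difference of a keratin changed direction while it was called, in any alternative. Called keratins numbered 2 of 4 from released day 3.5 to day 4.5 with a pseudocount of 16 or the mean of all probe sets, 3 with the arrays of the comparison alone and 4 (Krt19 included, which these arrays alone admitted to the test) with the replicate block, against 1 in the main test. Between released day 4.5 and control day 3.5 they numbered 2 after median centring, with the mean of all probe sets or with the block. The second was Krt19, which the released day 4.5 arrays alone admitted to the test, so its calls support no difference. For the last step set against the control step the number was 1 in place of 0 with a pseudocount of 16, a level of at least 7, median centring, quantile normalization, the mean of all probe sets, the block, the arrays of the comparison alone, or a trended robust prior. For the release step set against the control step it was 0 with no filter or with those arrays alone, 2 with the block, and between 0 and 2 without 1 array. Between U0126 and control day 2.5 it was 0 with those arrays alone and between 1 and 2 without 1 array. The cause of these shifts was not tested. The replicate block changed no other keratin call.

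The genes called in that U0126 comparison numbered 1383, and with its 4 arrays alone limma called 0 (2245 at an unadjusted p under 0.05), as against 2061 with the block. Without 1 array the number called fell to between 409 and 1183 there, between 1 and 30 for released against control day 3.5, and between 84 and 541 for released day 4.5 against control day 3.5. Median centring removes a median difference over all tested genes of up to 0.20 (control day 1.5 to 3.5). The call of Krt7 was lost in 4 of 13 alternatives for the first control step and in 9 of 13 for the second. For U0126 day 2.5 against control day 1.5 the call of Krt18 was lost in 5 of 13 alternatives and that of Krt7 in 1 of 13. Krt19 was not tested at a level of at least 7. Signal near background limits Krt7 in all groups up to control day 3.5 and Krt19 in nearly all.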
